A study of Sus scrofa with 20 samples.

Results

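In the longissimus muscle of pigs, 41 sequence tags were read at every Landrace (LR) stage from 35 days post coitus (dpc) to 90 days post natum (dpn) and in none of the libraries of Lantang (LT), a Chinese breed. They were chosen by their counts. Each had at least 10 copies in each of the 8 LR libraries of 35, 49, 63, 77 and 91 dpc and 2, 28 and 90 dpn. Each also had 0 copies summed over the 10 LT libraries, for the tag and for the tags that differ from it by 1 base after the first 4 bases. Of 801159 distinct tags in the series, 10042 met the LR minimum, and the 41 tags were 0.408% of these. The LR libraries of 120 and 180 dpn took no part in the choice. Because the LR and LT counts chose the tags, the difference between the breeds is given as a description and has no test.

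The study sampled LR and LT purebred pigs at 10 stages, 35, 49, 63, 77 and 91 dpc and 2, 28, 90, 120 and 180 dpn. Prenatal samples came from male fetuses and postnatal samples from boars, which the study castrated some weeks after birth, later than the stage of 2 dpn. Each library held the pooled RNA of 3 animals of 1 breed and stage, so that no stage of a breed had a replicate. The longissimus is a muscle of the back whose fibres form in successive waves before birth and grow mainly by enlargement after it. Landrace is a lean, fast-growing breed and Lantang a fatter, slower-growing one. Digital gene expression profiling counts messenger RNA by a short tag. NlaIII, a restriction enzyme, cleaves cDNA wherever CATG occurs, and the piece nearest to the poly(A) end is kept. The tag is its CATG with the next 17 bases, 21 in all. Ideally a transcript gives 1 tag whatever its length, so levels of tags need no correction for length. The study states that alternative splicing or incomplete digestion can leave a tag from a CATG further from that end. A transcript can then give more than 1 tag, and the level of a tag can be below that of its transcript.

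A tag is a piece of sequence and not a gene. A base that differs between breeds within these 21 bases gives another tag, and a base that makes or removes a CATG moves the tag along the transcript. A tag found in a single breed can therefore stand for a transcript that the other breed also makes. A transcript made in a single breed and a transcript whose tag differs cannot be told apart from these counts. The tags were not matched to genes because no transcript sequences were used here, and for the same reason the labelled tissue was not checked against muscle markers.

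The tags are called L1 to L41 in the order of their mean level over the 8 LR libraries. Sequences run 5′ to 3′, and the capitals mark the NlaIII site. L1 and L2 are shown because they were the most abundant, L11, L14, L18 and L21 because they were higher after birth, and L13 because it was lower. L9, L29, L30 and L33 are shown for their levels at 120 and 180 dpn.
L1: CATGgggaggagcaggtgaag
L2: CATGtgtaacacactgcaaat
L11: CATGtgctcctgtgtgtttta
L14: CATGgagtggccgccagttgg
L18: CATGtttcttaccaaggtttt
L21: CATGtcagagacatctggttt
L13: CATGtaatgaagaaatggctt
L9: CATGcatttcccccttctttt
L29: CATGagccctggaggcgagga
L30: CATGctcggcagcgaggaggt
L33: CATGggggttcctgcttcagg

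Library totals ran from 2157111 to 4706547 clean tags in LR and from 2615631 to 5322022 in LT. The smallest count in every library was 2, since tags seen once had been removed, so a tag listed at 0 in a library had 0 or 1 copies. At most 10 copies of a tag could be hidden in this way in LT, 0.248 copies per 1000000 LT tags. A count of 3, taken here as the smallest detectable amount, was worth 0.564 to 1.15 TPM per LT library, where TPM is copies per 1000000 clean tags of the library. Intervals and limits of this kind cover counting error only. The LR libraries of 120 and 180 dpn stood apart. Tags that hold a further CATG after the first made up 0.116% of the copies at 120 dpn (95% Wilson interval 0.113 to 0.120%) and 0.224% at 180 dpn (0.219 to 0.229%), against 2.14 to 3.80% in the other 18 libraries.

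Most tags that met the LR minimum were shared with LT. Of the 10042 tags that met the LR minimum, 97.1% were listed in all 10 LT libraries. Of these tags, 79 were themselves at 0 in LT. The condition on tags 1 base apart took out 38 of the 79, whose LT neighbours summed to between 40 and 6278 copies, with a median of 754.5, and left the 41. With the breeds exchanged, the same rule gave 49 tags found only in LT among 13211, or 0.371%. Of these 13211 tags, 60.9% were listed in all 10 LR libraries, a lower share than the 97.1%. Those 10 include the 2 oldest LR libraries, which stood apart as given above. Of the 10042 tags, themselves chosen by LR counts, 71.4% were listed in both of these oldest libraries. The gap between 60.9 and 97.1% is therefore not read as a difference between the breeds. The 41 tags together carried 0.184% of the counts of the 8 LR libraries. None was 1 base or 2 substitutions from another, so the 41 tags formed 41 separate families.

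The boundary of the rule was set by few copies. L13 and L19 were just inside it, each with 11 copies at 90 dpn, the shallowest LR library. Just outside were 2 tags with a lowest count of 9, at 91 dpc in one and at 2 dpn in the other. A further tag had at least 18 copies in each of the 8 LR libraries and 4 copies in LT. All 4 of those copies were at LT 35 dpc, and 8 tags were kept out by that library alone, with 4 to 112 copies there. Without LT 35 dpc the rule gave 49 tags, and without LR 90 dpn it gave 52.

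The 41 tags were spread over the range of levels of other LR tags. Their median mean level was 22.4 TPM, against 19.9 TPM for the 10042 tags. L1 had a mean of 804 ± 1184 TPM and L2 of 254 ± 186 TPM (SD over 8 stages, which differ in age and are not replicates). By mean level they ranked 104 and 363 among the 10042 tags, and together they made up 52.6% of the summed mean level of the 41 tags. The other 39 tags had means of 7.56 to 55.1 TPM. The mean of the 8 LR libraries was set against 3 copies in each LT library, a mean of 0.792 TPM. By these means L1 was at least 1016-fold higher in LR and L41, the least abundant, at least 9.54-fold higher. The bound for L1 does not hold at each stage. L1 was at 51.0 TPM at 35 dpc and 10.8 TPM at 120 dpn, where 3 LT copies were worth 1.02 and 0.914 TPM.

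L1 was read 216, 503, 766, 524 and 760 times at 35, 49, 63, 77 and 91 dpc, 1288, 8920 and 4975 times at 2, 28 and 90 dpn, and 37 and 49 times at 120 and 180 dpn. In TPM the prenatal levels were 51.0, 113, 163, 142 and 180.4, the levels at 2, 28 and 90 dpn were 413, 3066 and 2306, and the levels at 120 and 180 dpn were 10.8 and 13.5. The 3 young postnatal libraries were all above the 5 prenatal ones, and both late libraries were below all the others. In whole muscle, fewer cells that make a transcript and less of it per cell cannot be told apart. In LR 28 dpn this tag alone had a level above that of the 39 tags L3 to L41 together, 843 TPM.

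L2 took a different course. It was read 370, 1442, 2160, 1545 and 1672 times before birth, 985 times at 2 dpn, 28 and 39 times at 28 and 90 dpn, and 100 and 43 times at 120 and 180 dpn. Its levels were 87.4 TPM at 35 dpc, 323 to 459 TPM from 49 to 91 dpc and 316 TPM at 2 dpn. They were 9.63 and 18.1 TPM at 28 and 90 dpn and 29.2 and 11.9 TPM at 120 and 180 dpn. L2 was thus high from 49 dpc to 2 dpn and low at 28 dpn and later, and its 3 young postnatal libraries did not stand clear of the prenatal ones. The sum of L3 to L41, tags that took different courses, lay between 843 and 1215 TPM over the 8 stages.

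**Figure D1:**
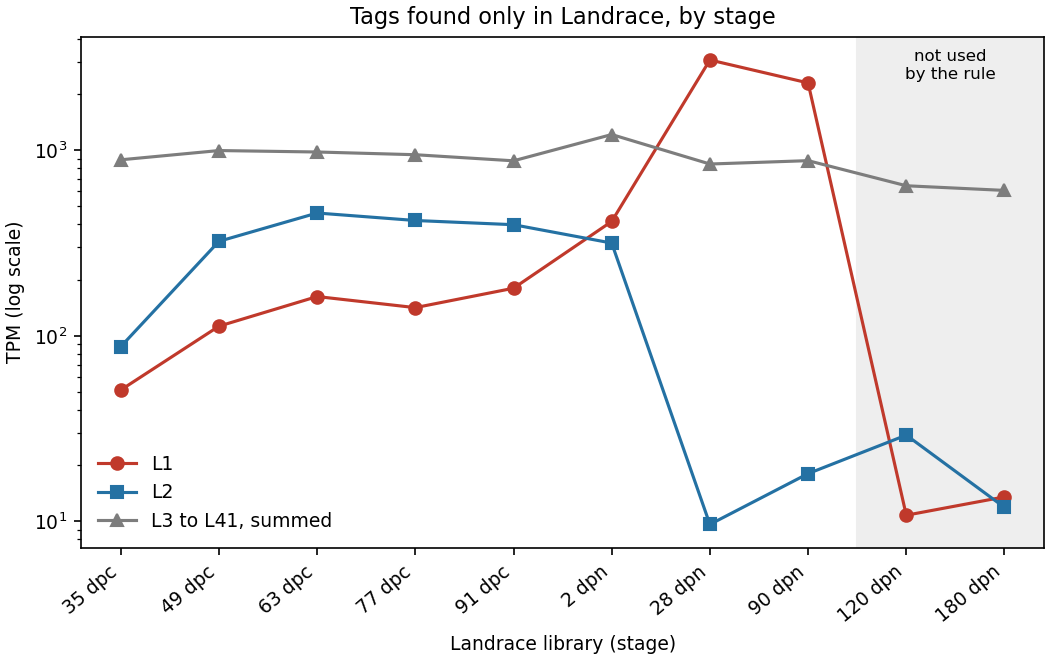
Level in TPM (log scale) of L1, of L2 and of the summed tags L3 to L41 in each of the 10 LR libraries, 1 pooled library per stage. L1 reaches 3066 TPM at 28 dpn and is at 10.8 and 13.5 TPM in the 2 shaded libraries, which the rule did not use; L2 is between 323 and 459 TPM from 49 to 91 dpc and at 9.63 TPM at 28 dpn.

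Among the next 8 tags by level, L3 to L10, no course was shared by all. L3 was at 88.7 TPM at 49 dpc and at 22.3 TPM at 90 dpn, its lowest of the 8 stages. L4 was at 98.0 TPM at 77 dpc and at 14.9 TPM at 35 dpc. L5 was at 67.1 TPM at 35 dpc and at 66.7 TPM at 2 dpn, and between 25.2 and 45.9 TPM at the other 6 stages. L6, L8 and L10 were lowest at 35 dpc, at 7.09, 10.2 and 12.3 TPM, and at least 25.0 TPM at each later stage to 90 dpn. L7 was highest at 2 dpn, at 78.0 TPM, and lowest at 28 dpn, at 15.5 TPM. L9 lay between 36.5 and 66.4 TPM before birth and between 17.6 and 26.1 TPM at 2 to 90 dpn, without overlap.

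Whether the tags tracked a stage was first described by the stage of the highest level. The highest of the 8 stages was 2 dpn for 12 of the 41 tags, 49 dpc for 8, 35 dpc for 7, 63 and 77 dpc for 4 each, 91 dpc for 3, 90 dpn for 2 and 28 dpn for 1. Tags highest at 2 dpn were 29.3% of the 41 and 15.0% of the 10042 tags, and tags highest at 35 dpc were 17.1% and 23.3%. Before birth the highest stage was found for 26 of the 41 tags, 63.4%, against 66.9%. The 12 tags highest at 2 dpn were L7, L11, L12, L14, L16, L18, L21, L28, L36, L39, L40 and L41. The lowest stage was 35 dpc for 12 of the 41 tags, 90 dpn for 7 and 28 dpn for 6. The shares of the 10042 tags lowest at these stages were 20.5, 21.6 and 22.1%. These shares are descriptions, since each stage is a single library.

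**Figure D2:**
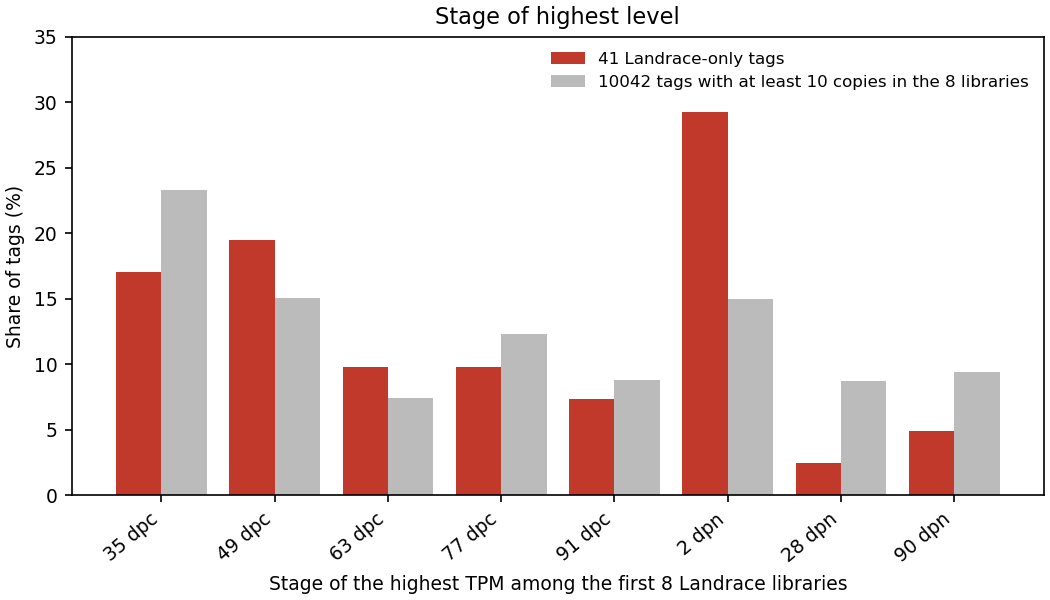
Share of tags (%) by the stage, among the first 8 LR libraries, at which the tag had its highest TPM, for the 41 Landrace-only tags and for the 10042 tags with at least 10 copies in each of those libraries. The bars at 2 dpn stand at 29.3 and 15.0%.

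A highest level that stood clear of the next was rare. It was at least 2-fold above the second highest in 4 tags, 9.76% of the 41, against 10.8% of the 10042. L21 reached 90.5 TPM at 2 dpn, 3.99 times its level at 28 dpn, the next stage in level. L11 reached 144 TPM at 2 dpn, 3.71 times its 38.9 TPM at 28 dpn. L41 reached 17.6 TPM at 2 dpn, from 55 copies, 2.33 times its 7.56 TPM at 35 dpc. L13 reached 95.4 TPM at 35 dpc, 2.07 times its 46.1 TPM at 63 dpc. L4, at 77 dpc, came next with a ratio of 1.84.

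The spread of a tag over the stages was also like that of other tags. The ratio of the highest to the lowest of the 8 levels had a median of 4.97 among the 41 tags and 4.77 among the 10042. It was 60.1 in L1, 47.7 in L2, 23.8 in L11 and 18.7 in L13. It reached 10 in 9 of the 41 tags, 22.0%, against 17.0%, and was below 3 in 5 tags, 12.2%, against 20.9%. The smallest were 1.97 in L40 and 1.98 in L36.

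**Figure D3:**
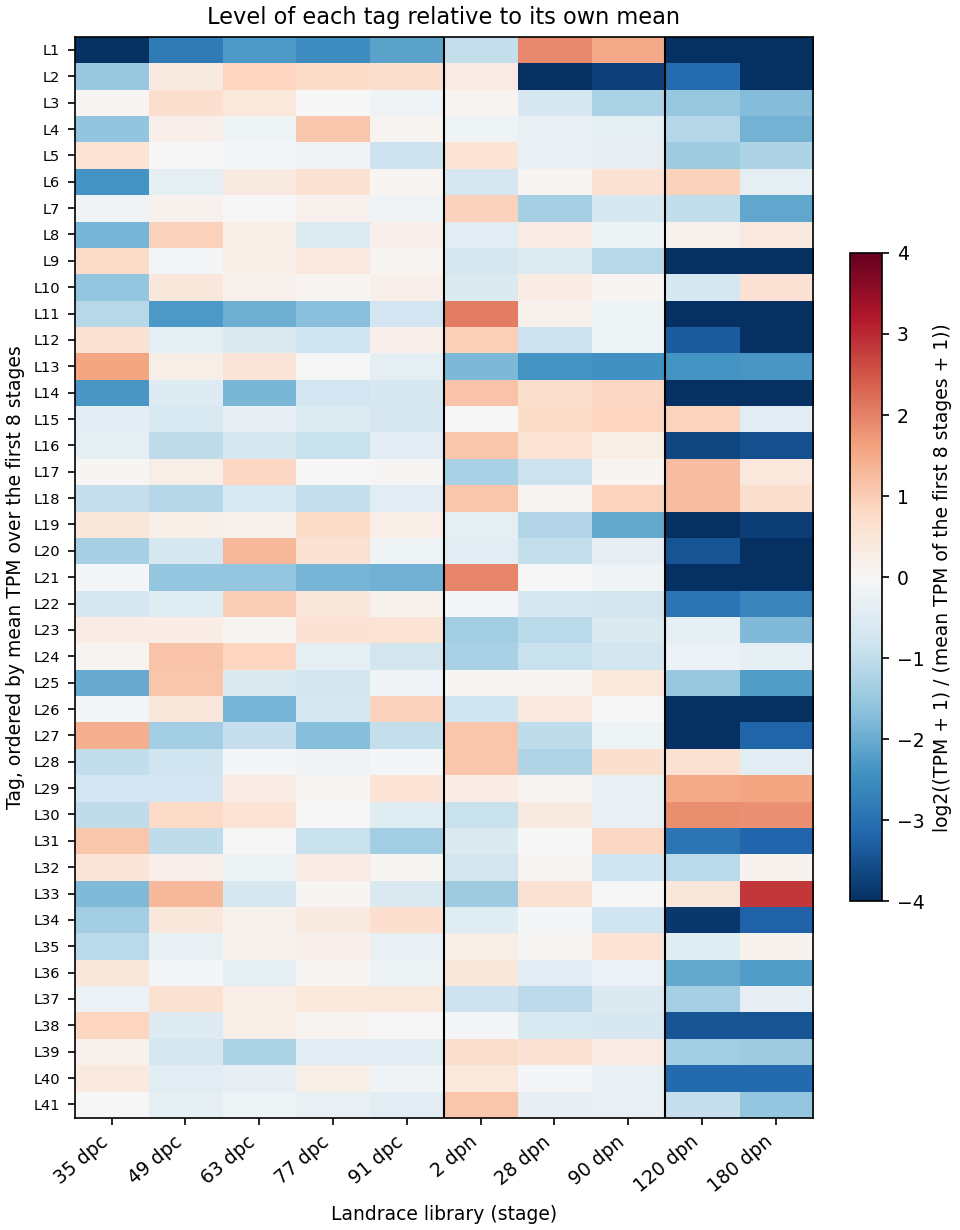
Level of each of the 41 tags (rows, ordered by mean TPM) in the 10 LR libraries (columns), as log2 of (TPM + 1) over (the tag's own mean TPM of the first 8 stages + 1); colours are saturated at -4 and 4, and the lines divide the prenatal, the 2 to 90 dpn and the 120 and 180 dpn libraries. L11, L14, L16 and L21 are red at 2 dpn, L13 is blue after birth, and 15 tags have a mean at 120 and 180 dpn under 0.1 of their mean at 2 to 90 dpn.

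Each LR library was then set against that of the stage before. Changes of at least 2-fold on the log2(TPM + 1) scale were counted without a test, because such a comparison is between 2 libraries and has no replicate check. From 35 to 49 dpc 12 tags were 2-fold higher and 6 lower, against 23.7 and 19.7% of the 10042 tags. From 49 to 63 dpc 3 were higher and 4 lower, against 5.03 and 3.02%. From 63 to 77 dpc 3 were higher and 1 lower, against 1.58 and 1.61%, and from 77 to 91 dpc 1 was higher and 0 lower, against 3.93 and 1.69%. Fewer tags thus passed 2-fold at each step from 49 to 91 dpc than from 35 to 49 dpc.

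Across birth, from 91 dpc to 2 dpn, 12 tags were 2-fold higher and 6 lower, 29.3 and 14.6% of the 41, against 15.4 and 24% of the 10042. From 2 to 28 dpn 4 were higher and 9 lower, against 8.43 and 18.1%. From 28 to 90 dpn 1 was higher and 0 lower, against 7.4 and 9.69%. From 90 to 120 dpn 3 were higher and 21 lower, 51.2% lower, against 14.2 and 52.4%. From 120 to 180 dpn 4 were higher and 8 lower, against 9.03 and 10.5%. In all, 98 of the 369 pairs of a tag and a step passed 2-fold. The matching total for the 10042 tags was not computed, so this total is not read as particular to the 41.

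To ask whether the tags followed the period rather than a single stage, the LR libraries of 2, 28 and 90 dpn were compared with those of 35 to 91 dpc, taking the stages within each period in place of replicates. The p-values thus measure the spread between stages, and the animals behind each were pooled. All 41 tags passed the low-count filter. The rule set its minimum of 10 copies in these same 8 libraries. A copy was worth 0.464 TPM at 90 dpn and 0.212 TPM at 63 dpc, so the minimum was stricter in the smaller libraries. For the 41 and the 10042 tags the p-values therefore depend in part on the choice. With edgeR's quasi-likelihood test and an adjusted p below 0.05, 8 of the 41 were higher after birth and 1 was lower, 9 in all. At an unadjusted p below 0.05 were 13 of the 41, against 17799 of all 44720 tags tested. Over all 44720 tags tested the shares called were 10.5% higher and 14.5% lower, and among the 10042 tags of the LR minimum they were 17.2 and 7.87%. The 8 higher tags were 19.5% of the 41, near the 17.2% of the 10042 tags.

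These calls depended on how the libraries were scaled. With TMM scaling the median log2 fold change of all tags was -0.34, and with scaling by total clean tags it was -0.95, a shift of 0.61. Scaling by totals called 12 of the 41 tags, 7 higher and 5 lower. Over all tags it moved the share of calls that were higher from 42.0 to 18.9%. The median of the 41 tags lay 0.93 above that of all tags under TMM and 0.91 above it under total scaling. It lay 0.35 above the median of the 10042 tags under TMM. L1, L11, L14, L15, L16, L18 and L21 were called higher and L13 lower under both. L39 was called higher only under TMM, and L9, L19, L23 and L37 lower only under total scaling. Leaving out 35 dpc raised the count to 15, and adding the 120 and 180 dpn libraries to the postnatal group lowered it to 4. With those 2 libraries added, L1 had an edgeR adjusted p of 0.060, and L11, L14, L16, L21 and L39 were not called either.

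Of the 8 higher tags, L1 rose by the most, with a log2 fold change of 4.60 ± 0.73 (SE) and an adjusted p of 0.0026 in edgeR. L11 was at 6.05 to 19.5 TPM before birth, with a median of 10.02, and at 144, 38.9 and 30.1 TPM at 2, 28 and 90 dpn. The periods did not overlap, and the log2 fold change was 3.12 ± 0.54 (edgeR adjusted p = 0.0036). Without the library of 2 dpn it was 2.20. L14 was at 5.196, 21.1, 7.86, 17.3 and 19.0 TPM before birth and at 68.0, 50.2 and 54.7 TPM after it, again without overlap, with a log2 fold change of 2.64 ± 0.48 (edgeR adjusted p = 0.0045).

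L18 was steady before birth, at 10.3 to 17.8 TPM, and was at 53.6, 25.4 and 45.9 TPM at 2, 28 and 90 dpn. Its log2 fold change was 2.24 ± 0.36 (edgeR adjusted p = 0.0029), and it was called under each alternative setting run. L21 was at 21.3 TPM at 35 dpc, at 5.22 to 7.01 TPM at the other prenatal stages, and at 90.5, 22.7 and 20.4 TPM after birth. Here the periods overlapped, because 35 dpc was above 90 dpn, and the log2 fold change was 2.83 ± 0.59 (edgeR adjusted p = 0.0075). It was 1.91 without 2 dpn and 3.47 without 35 dpc. The other 3 higher tags, L15, L16 and L39, had log2 fold changes of 1.79, 1.97 and 1.74.

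L13 was the tag that fell under both scalings. Its prenatal levels were 95.4, 37.4, 46.1, 31.7 and 23.7 TPM, and its levels at 2, 28 and 90 dpn were 8.34, 5.16 and 5.10 TPM, from 26, 15 and 11 copies. Every prenatal library was above every later one, including 120 and 180 dpn, where 18 and 20 copies gave 5.25 and 5.53 TPM. The log2 fold change was -2.29 ± 0.52 (edgeR adjusted p = 0.011), and the call held under each alternative run. L19 had a similar order, with 26.8 to 40.3 TPM before birth and 18.6, 9.97 and 5.10 TPM at 2, 28 and 90 dpn, but a log2 fold change of -0.91 ± 0.41 (edgeR adjusted p = 0.12).

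By TPM alone, 7 of the 41 tags had their 3 young postnatal libraries above all 5 prenatal ones, and 5 had them below. Among the 10042 tags these shares were 9.86 and 24.5%, so that 17.1% of the 41 were clear on the higher side and 12.2% on the lower. The 7 were L1, L11, L14, L15, L16, L18 and L39, and the 5 were L9, L13, L19, L23 and L37. L2, with 316 TPM at 2 dpn and 9.63 and 18.1 TPM after it, was not called (log2 fold change -1.09 ± 0.96, edgeR adjusted p = 0.42).

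The LR libraries of 120 and 180 dpn, which the rule did not use, listed most of the tags. At 120 dpn 34 of the 41 were listed with at least 2 copies, 82.9%, and at 180 dpn 32, 78.0%, against 76.0 and 76.5% of the 10042 tags. At least 10 copies were found for 25 of the 41 in each, 61.0%, and for 24 in both, 58.5% against 53.7%. L9, L21, L26, L38 and L40 were listed in neither, 12.2% against 18.9%. L9 had 75, 76 and 38 copies at 2, 28 and 90 dpn, and L21 had 282, 66 and 44.

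The levels at 120 and 180 dpn divided the tags. The mean of the 2 late libraries was under 0.1 of the mean of 2, 28 and 90 dpn in 15 tags, 36.6% against 38.1% of the 10042, and above it in 12, 29.3% against 29.6%. The median ratio was 0.276, against 0.317. Tags holding a further CATG were scarce in these 2 libraries, as given above, and the part of that in the levels was not tested. L19 was the single member with a further CATG, and it had 2 and 3 copies at 120 and 180 dpn.

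With edgeR, 2 tags were higher and 19 lower at 120 and 180 dpn than at 2, 28 and 90 dpn. The rule set a minimum in the young libraries and none in the late ones, so a fall was favoured in advance. The p-values are thus not independent of the choice, for the 41 or the 10042 tags. At an unadjusted p below 0.05 were 24 of the 41, against 17115 of all 28901 tags tested. Over all 28901 tags tested 12.5% were called higher and 40.4% lower, and among the 10042 tags 5.98 and 46.9%. The 19 lower tags were 46.3% of the 41, near the share of the 10042. In TPM, 4 tags had both late libraries above all 3 young ones and 23 had both below, against 15.8 and 56.8% of the 10042. The median log2 fold change was -1.75 for the 41 tags and -1.58 for the 10042.

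L1 fell by 7.31 on the log2 scale, with an SE of 1.28 (edgeR adjusted p = 0.0050), and without 2 dpn it fell by 7.92. L14 had 212, 146 and 118 copies at 2, 28 and 90 dpn and 3 and 0 copies at 120 and 180 dpn, and L11 had 449, 113 and 65 copies and then 3 and 0. L16 was at 65.5, 43.3 and 35.2 TPM and then at 1.46 and 1.66 TPM, a log2 fold change of -4.82 ± 0.68 (edgeR adjusted p = 0.0049). L18 was at 57.4 and 38.4 TPM and was not called (log2 fold change 0.26 ± 0.57, edgeR adjusted p = 0.73).

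For the 5 tags listed at 0 in both late libraries only a bound can be given. Against 3 copies in each late library, a mean of 0.852 TPM, L21 was at least 52.3-fold lower than at 2, 28 and 90 dpn. The bound was 26.5-fold for L9, 21.3-fold for L26, 9.33-fold for L40 and 8.42-fold for L38. Without 2 dpn the bound for L21 was 25.3-fold.

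L29 and L30 were the tags that rose. L30 was at 8.66, 22.0 and 13.4 TPM at 2, 28 and 90 dpn and at 63.5 and 61.9 TPM at 120 and 180 dpn. Its log2 fold change was 2.12 ± 0.61 (edgeR adjusted p = 0.021), and it was called under 6 of 8 alternative settings, where adjusted p ran from 0.0056 to 0.085. L29 was at 21.5, 18.9 and 13.9 TPM and then at 51.3 and 53.9 TPM, a log2 fold change of 1.61 ± 0.51 (edgeR adjusted p = 0.030). Under 6 of the 8 settings it was not called, with adjusted p from 0.0071 to 0.19. Neither tag was called without 120 dpn or without 180 dpn, which left a single late library. There L30 had adjusted p of 0.085 and 0.080, and L29 of 0.11 and 0.12.

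L33 reached 103 TPM at 180 dpn, from 374 copies, the highest level of any of the 41 tags in the late libraries, but was at 18.9 TPM at 120 dpn and was not called (log2 fold change 2.25 ± 0.91, edgeR adjusted p = 0.069). Before these stages it lay between 3.31 TPM at 35 dpc and 35.2 TPM at 49 dpc. L6 was at 79.3 and 32.1 TPM at 120 and 180 dpn and L8 at 44.6 and 52.2 TPM, after 25.7 to 62.1 and 28.6 to 49.8 TPM at 2 to 90 dpn. Over all 10 stages, 5 tags were highest at 120 dpn, L6, L15, L17, L18 and L30, and 3 at 180 dpn, L10, L29 and L33.

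**Figure D4:**
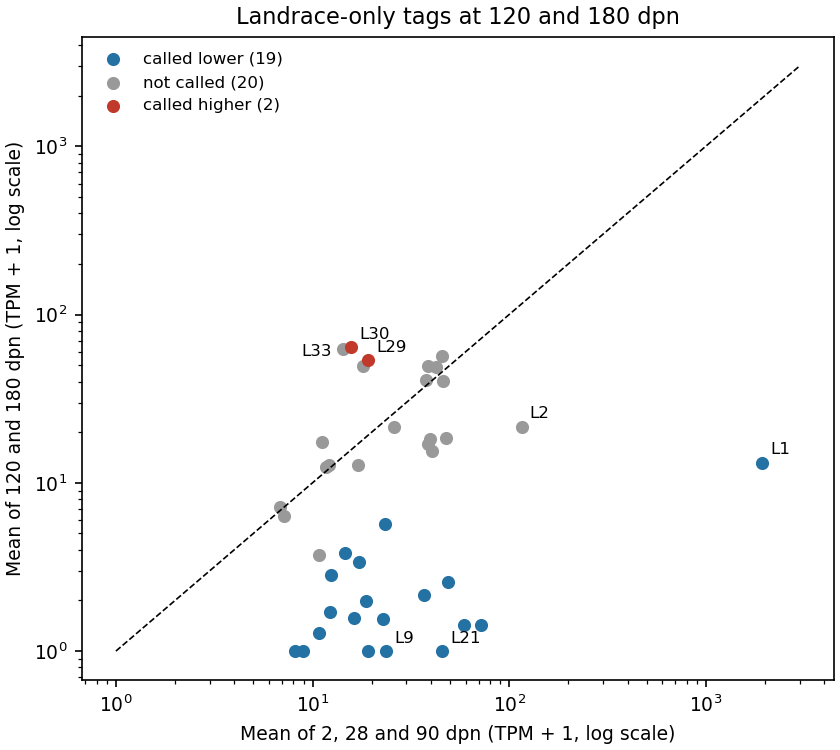
Mean TPM + 1 of LR 120 and 180 dpn against mean TPM + 1 of LR 2, 28 and 90 dpn, both on log scales, with 1 point per tag and the dashed line at equal levels; colours give the edgeR call (19 lower, 2 higher, 20 not called). L29 and L30 lie above the line, L1 far below it, and L9 and L21 sit at 0 copies on the lower edge.

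The sequences of the 41 tags are described beside those of the other tags, without a test. The 17 bases after CATG had a median GC content of 47.1%, from 5.88% in L12 to 76.5% in L16 and L35, against a median of 41.2% in the 10042 tags, a gap of 1 base in 17. The first base after CATG was T in 20 of the 41, 48.8%, against 35.5%. The letters AATAAA, read on the tag's own strand, were in 0 of the 41 tags and in 2.41% of the 10042. L19 alone held a further CATG, 2.44% against 2.95%.

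In LR itself, 30 of the 41 tags had other LR tags 1 base away, and 11 had none. The neighbours of a tag together had at most 6.39% of its copies summed with theirs. L1 had 38 such neighbours with 897 copies, 4.74% (95% Wilson interval 4.44 to 5.05%), and L2 had 26 with 186 copies, 2.17% (1.88 to 2.50%). L7 and L8 had none.

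The rule looked in LT for tags 1 base away. Further in sequence, tags 2 substitutions away or shifted by 1 inserted or deleted base were listed in LT for 14 of the 41, 34.1%, against 29.98% of the 10042 tags. With at least 50 LT copies such a related tag was found for 6 of the 41, 14.6%, against 7.40% of the 10042 and 8 of the 49 LT-only tags, 16.3%. The 41 and the 10042 tags are unlike here. Of the 10042, 97.1% were themselves listed in all 10 LT libraries, and the 41 were at 0 in LT. These 6 pairs are shown because their related LT tags had the most copies. Capitals mark the bases that differ or the base that 1 tag has in excess, and positions are counted from 1 at the first base of CATG. Whether both tags of a pair come from 1 gene was not tested.
L7: catgtgttcaGTtatttcttt
L7 related tag: catgtgttcaAGtatttcttt
L8: catgtaatgaGttctagtTta
L8 related tag: catgtaatgaAttctagtAta
L23: catggtaaatttataCgCctt
L23 related tag: catggtaaatttataTgTctt
L24: catgtagctatatGgggggga
L24 related tag: catgtagctatatggggggag
L25: catgacttttcttatgtctga
L25 related tag: catgacttttcttGatgtctg
L26: catgtcaaacaccTttgttta
L26 related tag: catgtcaaacaccttgtttag

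The pair of L23 was the one in which each tag was listed at all 10 stages of 1 breed and at 0 in the other. The related tag differs from L23 by C16T and C18T, was listed in all 10 LT libraries with 357 copies, and was at 0 in all 10 LR libraries. In LR, L23 was at 27.2, 27.3, 23.6, 33.6 and 32.5 TPM at 35 to 91 dpc, at 7.70, 9.97 and 14.4 TPM at 2, 28 and 90 dpn, and at 16.9 and 5.80 TPM at 120 and 180 dpn. In LT, the related tag was at 8.12, 22.2, 7.65, 15.6 and 13.0 TPM before birth, at 2.04, 0.390 and 4.30 TPM at 2, 28 and 90 dpn, and at 5.18 and 4.43 TPM at 120 and 180 dpn. In TPM, which scales by total clean tags, the prenatal levels were above the postnatal ones without overlap in both breeds. With TMM scaling L23 was not called at 2, 28 and 90 dpn against before birth (log2 fold change -0.78 ± 0.39, edgeR adjusted p = 0.16). In TPM, L23 in LR was above the related tag in LT at each of the 10 stages. The breed difference of L23 itself was fixed by the rule.

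The related tag of L8, with G11A and T19A, was found in both breeds. It was listed in all 10 LT libraries, at 10.2 to 86.8 TPM with a median of 23.4, and in 4 of the 10 LR libraries, at 27.3 TPM at 91 dpc, 13.2 TPM at 2 dpn, 6.70 TPM at 120 dpn and 39.5 TPM at 180 dpn. L8 itself had a mean of 39.8 TPM over the 8 LR libraries and the related tag a mean of 32.9 TPM over the LT libraries. The related tag of L7, with G11A and T12G, was rare in both breeds, with 75 copies in LR and 70 in LT, while L7 itself had 45 to 243 copies in each of the 8 LR libraries.

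The remaining 3 pairs can each be read as a difference of 1 inserted or deleted base. L24 has 1 base more than its related tag in a run of G that begins at position 14, and its place within the run cannot be fixed. The same pair can also be read as the substitutions G20A and A21G. The related tag went from 128 TPM at 35 dpc to 12.9 TPM at 90 dpn in LT, lower at each stage than at the one before, and was at 25.9 and 24.5 TPM at 120 and 180 dpn. In LR it was listed in 6 of 10 libraries, at 21.7 TPM or less. L24 was at 46.6 TPM at 49 dpc and at 7.70 TPM at 2 dpn. The related tag of L25 has a G more at position 14 and had 1901 copies in LR and 3504 in LT. Over the 8 LR libraries it had a mean of 56.7 TPM, against 19.4 TPM for L25, but at 90 and 120 dpn it was below L25. L26 has 1 base more in a run of T from position 14, and its related tag had 517 copies in LR and 999 in LT. At 120 and 180 dpn both L26 and its related tag were at 0 in LR, while the related tag was at 20.1 and 38.9 TPM in LT.

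**Figure D5:**
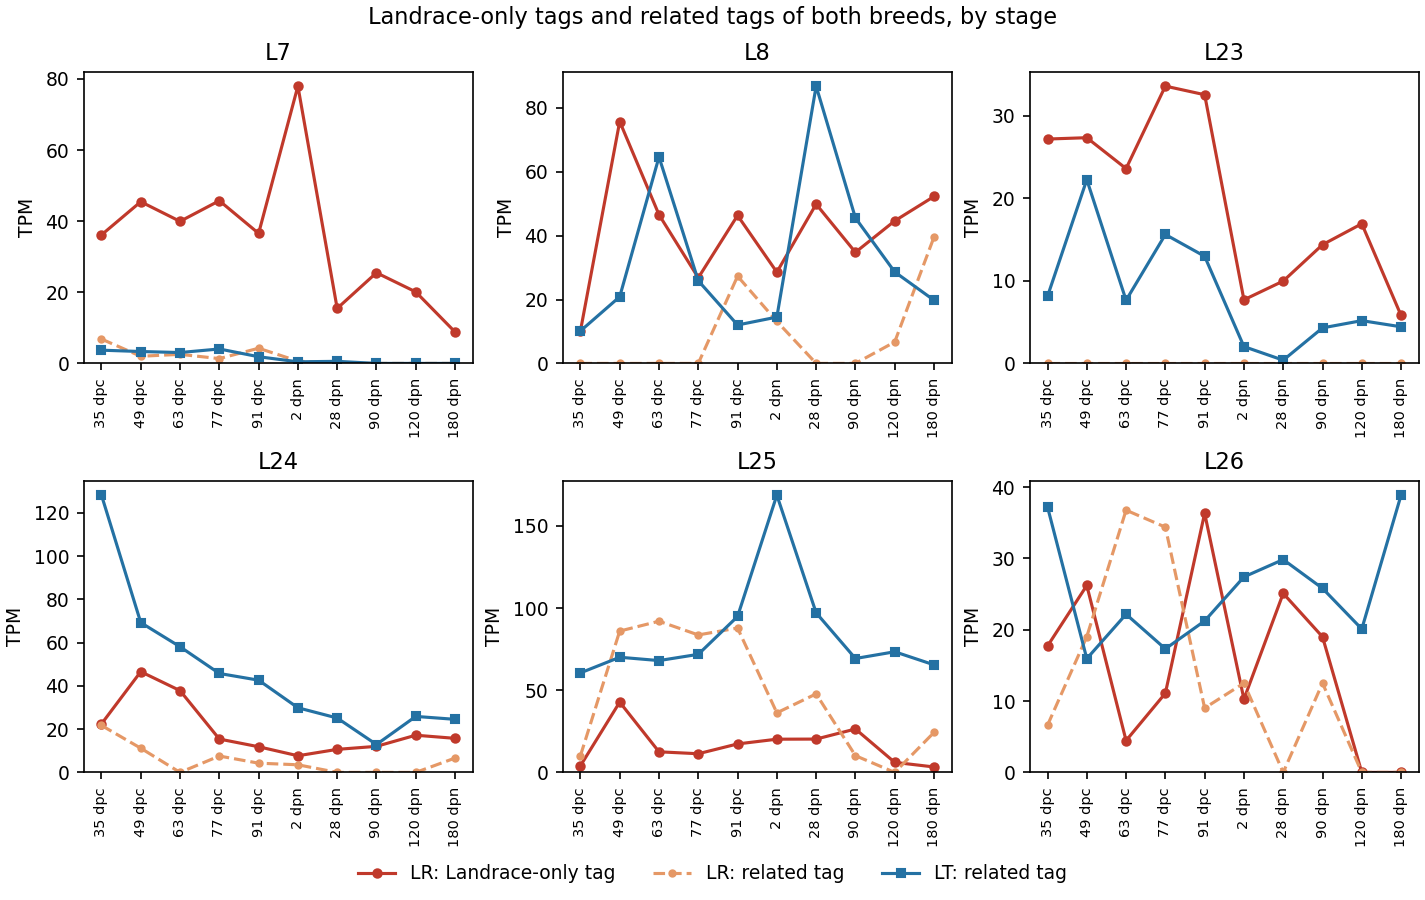
Level in TPM by stage of the 6 Landrace-only tags with a related LT tag of at least 50 copies; red circles show the Landrace-only tag in LR, orange dashes the related tag in LR and blue squares the related tag in LT, 1 pooled library per point. For L23 the related tag is at 0 in LR and lies below L23 at each stage, and for L24 the related tag in LT goes from 128 TPM at 35 dpc to 12.9 TPM at 90 dpn and is at 25.9 and 24.5 TPM at 120 and 180 dpn.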

How the data were processed

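Muscle RNA of 20 pools, LR and LT at 10 stages, was profiled by NlaIII tag sequencing. The authors removed adaptor tags, low-quality tags and one-copy tags and deposited, for each library, the count of every distinct clean tag, not normalized. Beside it the authors gave TPM, the count per 1000000 clean tags rounded to 2 decimals, and all TPM values matched the recomputed ones to within 0.0051. Aligned or annotated tables were not used here. The 41 tags, the lists and the comparisons were chosen with earlier results of these data known. The rule was applied to counts, and TPM was recomputed from counts.

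Periods were compared on counts with edgeR 4.0.16 (R 4.3.3; quasi-likelihood, TMM, filterByExpr, Benjamini-Hochberg over all tags tested, adjusted p below 0.05), after tests on simulated data. Of 200 tags changed in the simulated data, edgeR recovered 149 for after against before birth and 118 for 120 and 180 dpn. Most of those missed had the smaller fold change, and the simulated spread was below that of the data. A tag that was not called can thus have changed. SE is the log2 fold change over the square root of F. Adjacent stages were compared as log2(TPM + 1). DESeq2 1.42.0, other scalings, filters and thresholds, merged tags and omitted libraries were alternatives. Other steps used Python 3.11.15.

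Tags named were the 10 most abundant, up to 5 called in each direction after against before birth by size of change, the 5 highest at 120 and 180 dpn, the 5 with the largest ratio of the highest stage to the next, and those at the boundary of the rule. Others were named after their values were seen. Planned marker and gene lists could not be used, since tags were not matched to genes.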

Additional observations from a re-analysis of the deposited data

Results flagged for a closer look

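Over the 5 prenatal LR libraries, 3 of the 41 tags had a library far from the other 4, with a gap of more than 0.71 of the range. For 5 replicates this cut marks about 1 in 20 groups by chance, or 2.05 of 41. The 5 libraries differ in age and are not replicates, so that rate need not hold here. L17 was at 46.5 TPM at 63 dpc and at 25.7 to 30.5 TPM in the others. L21 was at 21.3 TPM at 35 dpc and at 5.22 to 7.01 TPM in the others. L27 was at 51.5 TPM at 35 dpc and at 4.87 to 9.14 TPM in the others.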

How the results depend on the processing

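The number of tags found only in Landrace was 69 with a minimum of 5 copies, 79 when LT copies were counted for the tag alone, and 24 when 10 copies were also required at LR 120 and 180 dpn. It ranged from 29 to 46 with minima of 20 copies and 3 TPM and with LT tags 2 substitutions (31) or 1 inserted or deleted base (35) away also at 0. Leaving out 1 of the 18 libraries of the rule gave 41 to 52. After against before birth, the 9 called tags became 4 with 120 and 180 dpn added, 6 without a filter, 11 with tags 1 base apart merged, 12 with DESeq2 or total scaling, and 9 to 15 with a library left out. Of 117 single results for the 9 called tags, 106 kept their call and 11 kept the direction only. For 120 and 180 dpn, 19 to 23 tags were called under the other settings and 16 to 21 with a library left out, where a lone late library was assumed to vary like the others. Of 168 single results for the 21 called tags, 151 kept their call and 17 the direction only. The 98 pairs past 2-fold became 105 with a pseudocount of 0.1 TPM, 109 with TMM scaling and 56 at 3-fold. With at least 10 copies, 61.0% of the tags were listed at 120 dpn and 61.0% at 180 dpn. The cause of these moves was not tested. No paired analysis was possible because the tests compared stages within LR, each with 1 library and no pairing in the labels, and the breeds, which could be paired by stage, were not tested since the rule chose the tags on that difference. Single pooled libraries limit every comparison, and tags under about 3 copies cannot be told from 0.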
